A study of Mus musculus with 3 samples.

Results

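Replication-dependent histone genes were taken as the protein-coding genes of the mm10 genome (GENCODE vM21 annotation) whose symbol starts with Hist1h, Hist2h, Hist3h or Hist4h. There were 67 of them among 21938 protein-coding genes: 18 genes for H2A, 18 for H2B, 13 for H4, 12 for H3 and 6 for the linker histone H1. Of these, 54 lie in the Hist1 locus on chromosome 13, 10 in Hist2 on chromosome 3, 2 in Hist3 on chromosome 11 and 1 in Hist4 on chromosome 6. The choice rests on names alone and uses no measured value, but earlier results of these data were known when it was made.

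The cells were long-term hematopoietic stem cells (HSCs; LSK CD48− CD150+ CD34−) sorted from c-Kit-enriched bone marrow of wild-type 8-week-old female C57BL/6 mice. They were processed by DOGMA-seq, which reads open chromatin (ATAC), RNA and antibody tags from the same cells. There was 1 preparation with 1 library of each kind, from a number of mice not given in the sources used here, so no value below has a biological replicate and no test between groups was made. What was analysed is the ATAC library, in which a transposase cuts accessible DNA and each unique fragment between a pair of cuts is counted.

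Nucleosomes hold DNA on an octamer of H2A, H2B, H3 and H4, and H1 binds the linker DNA between them. Cells make most of this protein in S phase, when the replicated genome has to be packaged, from clustered genes that mostly lack introns and whose mRNAs end in a conserved stem-loop instead of a poly(A) tail. The stem-loop is bound by SLBP, whereas NPAT, a substrate of cyclin E and CDK2, turns on transcription of the clusters at the start of S phase. Adult HSCs are known for being largely quiescent. Variant histones such as H2A.Z and H3.3 are made throughout the cell cycle from separate genes.

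Of 605049 barcodes, 3757 had been called as cells, with ATAC and RNA counts under the same barcode, and 3108 of those had more than 3000 fragments in peaks and were kept. Kept cells held 37142391 fragments, with a median of 11457 per cell and a range of 3977 to 194399. Levels are given as FPM, the fragments at a promoter per 1000000 fragments of kept cells. Promoters of hematopoietic stem cell markers such as Hlf (46.7 FPM) and Kit (30.1) were open, although those of Slamf1 (2.96) and Ly6a (1.02) were low. The 4 T cell markers had between 0.135 and 0.458 FPM, and the 4 markers of neutrophils and monocytes between 0.269 and 1.64. The 4 B cell markers had between 0.808 and 3.50, the 4 erythroid markers between 0.512 and 5.60 and the 4 endothelial or stromal markers between 1.05 and 6.62. The 4 megakaryocyte markers had between 4.23 and 29.2, with Itga2b the highest. Sites overlapped by 3 or more fragments in 1 cell exceed the number of copies in a diploid cell before replication. By the number of such sites, 204 cells (6.56%) were marked as possible doublets, with the same limit at every depth. These cells were kept unless stated.

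The sequences that define the family are shown first. The 3′ end motif was found in nearly every member: a perfect stem of 6 base pairs around a loop of 4 bases within 100 bases of the stop codon was read in 63 of 67 genes, in 6 forms. The forms differed by histone type. In the lines below the loop is in capitals and bases are written as DNA, 5′ to 3′, from GRCm38.
Form in 41 members, none of them H4: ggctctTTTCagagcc
Form in 9 members, none of them H4 either: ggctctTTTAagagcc
Form in 8 members, all H4: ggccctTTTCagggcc
Form in 2 H4 members, Hist1h4i and Hist2h4: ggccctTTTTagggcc
Form in 2 H4 members, Hist1h4b and Hist1h4j: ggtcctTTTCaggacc
The sixth form was in Hist2h2ac alone. No perfect stem was read in Hist1h2an, Hist1h3g, Hist1h4a or Hist2h2be. Single-exon structure was as common: 65 of 67 members had 1 exon.

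Upstream of the start, members of different types carried different motifs. Short motifs were searched as exact letters in the 250 bases before each transcription start site (TSS), and the same search was made in all 21938 promoters. CCAAT, on either strand, was in all 18 H2A and all 18 H2B promoters, in 9 of 12 H3 and in 4 of 13 H4 promoters, 80.6% of members against 35.7% of all promoters. The octamer ATTTGCAT, on either strand, the sequence bound by the POU factor Oct-1, was in 7 H2A and 8 H2B promoters and in no other member, 22.4% of members against 1.48% of all. GGGCGG (the GC box), on either strand, was in 10 of 13 H4 promoters and in 0 of 18 H2B promoters, 28.4% of members against 41.6% of all. TATAAA, on the strand of the gene, was in 40.3% of members and in 7.82% of all promoters. AAACACA, on either strand, known as the H1 box, was in 4 of 6 H1 promoters, 11.9% of members against 5.62% of all. A pair of E2F sites (TTTGGCGC or TTTCCCGC, on either strand) was searched as well, and Hist1h4a was the 1 member with a match, 1.49% of members against 1.68% of all. The motif of GATA factors, AGATAA, was in 11 members (16.4% against 8.77%), while CACGTG (the E box, in 6.61% of all) and ACCGGAAG (an ETS site, in 2.09% of all) were in 0, each searched on either strand. These are matches of letters, and no binding was measured. H2A and H2B genes that run apart from a shared promoter have overlapping stretches. The same CCAAT or octamer site can thus count for both, as the octamer of Hist1h2ac and Hist1h2bc does.

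The promoters of the members that carry the accessibility results below are given here as the 150 bases that end just before the TSS, in mm10 and on the strand of the gene, with every motif match in capitals, so that CCAAT also shows as ATTGG and the octamer as ATGCAAAT. Hist1h4a had the most fragments of all members. Hist1h2ac and Hist1h2bc are the most open divergent pair, and their stretches overlap because the genes run apart from a shared promoter. Hist1h1c is the most open H1 gene.
Hist1h4a, chr13:23761231-23761380, minus strand: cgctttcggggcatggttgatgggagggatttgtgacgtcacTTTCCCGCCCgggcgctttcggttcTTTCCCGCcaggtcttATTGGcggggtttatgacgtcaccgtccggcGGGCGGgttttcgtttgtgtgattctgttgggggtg
Hist1h2ac, chr13:23683949-23684098, minus strand: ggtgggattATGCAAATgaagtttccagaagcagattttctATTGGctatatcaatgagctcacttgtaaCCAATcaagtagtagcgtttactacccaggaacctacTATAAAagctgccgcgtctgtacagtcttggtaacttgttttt
Hist1h2bc, chr13:23684049-23684198, plus strand: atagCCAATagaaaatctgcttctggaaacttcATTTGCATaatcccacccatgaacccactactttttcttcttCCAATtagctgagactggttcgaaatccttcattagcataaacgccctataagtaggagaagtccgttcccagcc
Hist1h1c, chr13:23738658-23738807, plus strand: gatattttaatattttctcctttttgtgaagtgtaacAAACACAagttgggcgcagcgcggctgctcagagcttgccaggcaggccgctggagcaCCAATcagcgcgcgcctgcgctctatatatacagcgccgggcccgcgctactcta
In Hist1h4a the first E2F match runs into a GC box, which makes the longest stretch of capitals. In Hist1h2bc the octamer lies between a pair of CCAAT matches.

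The histone promoters were open in these HSCs, to a middling and rather even degree. Fragments were counted when they overlapped the window of 500 bp on each side of the TSS, which has the same length for every gene. The median member had 15.02 FPM, 2.28 times the median of all protein-coding promoters (6.60), but the ratio of the means was 1.05. The members were sparse in both tails of the distribution. Of the 67, 51 were above the median of all promoters and 17 above the 75th percentile, yet only Hist1h4a was above the 90th, and 7 were below the 25th. Together the members took 37938 fragments, 0.287% of all promoter fragments, or 11 in the median cell.

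**Figure D1:**
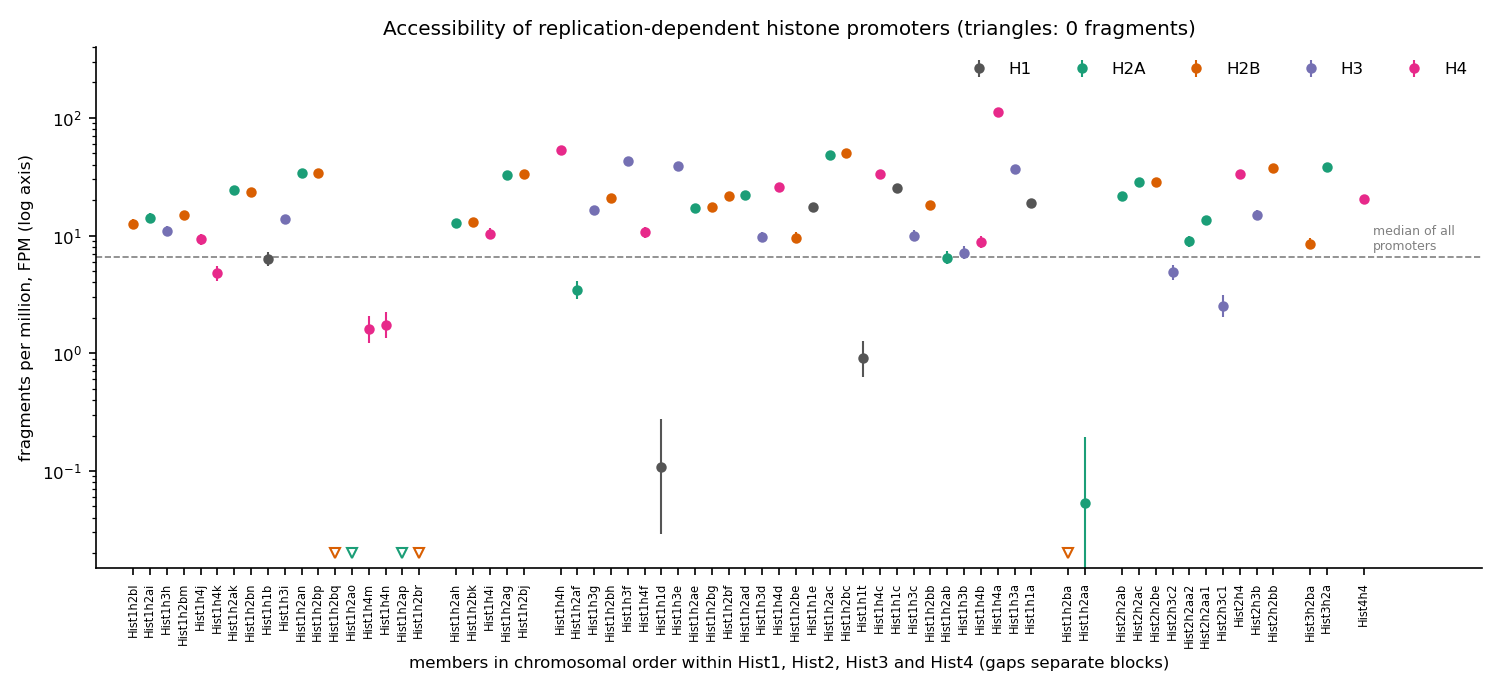
FPM at each of the 67 member promoters (log axis), in chromosomal order within Hist1, Hist2, Hist3 and Hist4, colored by histone type, with 95% Poisson intervals for counting error; open triangles mark members with 0 fragments and the dashed line the median of all promoters (6.60). Hist1h4a stands alone at 113, most members lie between 5 and 50, and the members at 0 sit together apart from Hist1h2ba.

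Among H4 genes, which encode the least variable core histone, 1 gene stood far above the others. Hist1h4a had 113 FPM (95% Poisson interval 110 to 117, which like all intervals here covers counting error only), and a fragment was seen in 67.2% of cells. This placed it at percentile 98.8 of all promoters. Hist1h4h, the next member of any type, had 53.6, and the other H4 genes of Hist1 reached at most 33.6 (Hist1h4c). Hist2h4 had 33.2 and the only gene of the Hist4 locus, Hist4h4, had 20.5. Hist1h4a gave 34.6% of all H4 fragments. With it the mean H4 member had 25.2 FPM, and without it 17.8, close to the mean H2A, H2B and H3 members (18.2, 19.2 and 17.4).

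H2A and H2B genes, whose products pair as dimers in the nucleosome, were the types with the highest medians, 15.6 and 17.9 FPM. Hist1h2bc had 50.6 and Hist1h2ac 48.7, and fragments in the shared promoter of the pair count for both. Outside Hist1, Hist3h2a had 38.2, Hist2h2bb 37.6 and Hist2h2ac 28.8, whereas Hist3h2ba had 8.54. There were 12 divergent H2A-H2B pairs with start sites 176 to 306 bp apart, and their windows overlap, so partners cannot differ much. In the 9 pairs with fragments at both partners, these differed by a factor of 1.12 at most. The 24 members of these pairs had a median of 19.6 FPM, and the 12 H2A and H2B genes outside them 14.3. A further divergent pair, Hist1h2bh and Hist1h3f, lies 660 bp apart and the partners had 21.1 and 43.1 FPM.

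H3 genes had a median of 12.3 FPM, with Hist1h3f (43.1), Hist1h3e (38.7) and Hist1h3a (36.8) well above the other 9, which had 16.5 or less. The annotated start of Hist1h3f lies 433 bp from its start codon, where the value was 36.45, so the order of these genes depends on the annotation. The most open H3 gene of Hist2, Hist2h3b, had 15.1. For H1, 3 of 6 genes were above the median of all promoters: Hist1h1c with 25.6 FPM, Hist1h1a with 18.9 and Hist1h1e with 17.6. Hist1h1b followed with 6.33. At Hist1h1d only 4 fragments (0.108 FPM) were found, but its annotated start lies 1828 bp from its start codon, where a window of the same length held 340 fragments (9.15 FPM). Hist1h2be had the same problem, with 357 fragments at its annotated start and 719 at its start codon. Both values therefore depend on the annotation.

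The 3 members known for expression in the male germ line were close to closed. Hist1h1t, the testis H1, had 34 fragments (0.915 FPM). The testis-specific divergent pair Hist1h2aa and Hist1h2ba, which lies by itself at the end of the Hist1 locus, had 2 and 0 fragments, and a count of 0 allows up to 0.0808 FPM (3 fragments, a one-sided limit, where the two-sided 95% Poisson interval reaches 0.0993). For comparison, olfactory receptor genes had a median of 0.0269. Hist1h1t lies between open members, 3 kb or less from Hist1h4c, and was still low.

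The 5 members with fewest fragments were at 0, and for 4 of them the count has no meaning. The windows of Hist1h2bq, Hist1h2ao, Hist1h2ap and Hist1h2br consisted entirely of 50-base stretches that occur elsewhere in the genome, so reads from them cannot be placed. More than 50% of the window was repeated in 12 members, with a median of 2.14 FPM against 17.6 in the other 55, and that part of the low values cannot be told apart from closed chromatin. Repeats were mostly in the coding part: the median member had 57.5% of the window downstream of the TSS repeated and 0% upstream. The near-identical coding sequences of a family are thus a blind spot, while the promoters themselves are mostly unique. The fifth, Hist1h2ba, was 13.7% repeated.

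The summed level differed along Hist1. The 29 members between 23.531 and 23.764 Mb of chromosome 13 had 22.8 FPM per kb of merged window, the 5 members near 22.036 Mb had 16.1 and the 18 members between 21.716 and 21.834 Mb had 9.49, the last block being the one with the unreadable genes. The other genes of the span were mostly closed. Between the outermost Hist1 members lie 49 other protein-coding genes, and their median was 0.0538 FPM. Of these, 36 are vomeronasal receptor genes (Vmn1r), with 0.135 at most, and only 4 of 49 were above the median of all promoters: Abt1 (30.2), Zfp184 (27.7), Zfp322a (15.8) and Btn2a2 (10.8). Hfe, the hemochromatosis gene, which lies 12.4 kb from the nearest member, had 5.33.

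By their medians, promoters of genes that make, process or carry histones were more open than the histone promoters. For 11 genes of replication-independent histones the median was 30.5 FPM, from 110 at H2afv and 109 at H3f3a to 2.07 at the annotated start of H3f3b. The 16 genes for histone mRNA synthesis and processing had a median of 48.4, with the coactivator gene Npat the highest (94.2), Slbp at 60.2, and Pou2f1, which encodes Oct-1, the lowest (0.835). For 8 genes that handle new histones, among them the chaperones of the Asf1 and CAF-1 families, the acetyltransferase Hat1 and the import receptor Ipo4, the median was 42.9, from Asf1a (83.2) to Ipo4 (21.9). Genes known for S-phase expression (43 genes) had a median of 37.9, from Gins2 (141) to Tyms (3.34). Those of G2 and M phase (54 genes) had a median of 37.0, from Cdca2 (152) to Psrc1 (6.73). All of these medians exceeded that of the members (15.02), by a factor of 2 or more. That median includes 12 members with repeated windows. Without them it was 17.6, still below the others but by a smaller factor. The other groups were not checked for repeats.

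**Figure D2:**
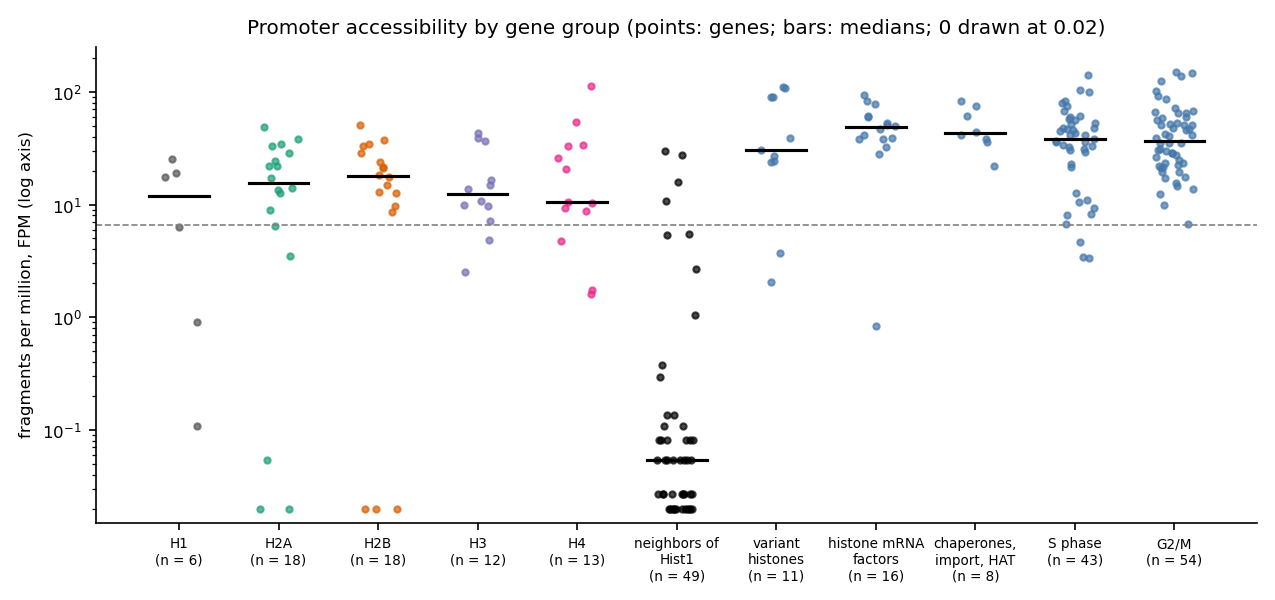
FPM (log axis) at the promoters of histone members by type, of the 49 other genes within the Hist1 span and of related gene groups; points are genes, bars medians, values of 0 are drawn at 0.02, and the dashed line is the median of all promoters. The histone types have medians between 10.6 and 17.9, the neighbors 0.0538, and the other histone-related groups between 30.5 and 48.4.

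The shape of the open region was examined in 53 members with mostly unique windows and a start codon near the TSS. Transposase cuts peaked 90 bp upstream of the TSS, against 50 bp upstream in all other promoters, and 67.3% of the cuts within the window were upstream, against 58.9%. The peak position followed the type: 150 bp upstream in H2B, 110 in H2A, 90 in H4 and 50 in H1 and H3. The width of the peak at mid-height was 300 bp both for members and for all other promoters. These values read more of the upstream side than of the coding side, where the family repeats. In the 12 members with under 25% of the downstream side repeated, a limit chosen after seeing the data, the peak was at 70 bp upstream, its width 220 bp and the upstream share 56.5%, below that of all other promoters. A position further upstream in members, and its order by type, thus cannot be told apart from unreadable sequence. Cuts between the starts of a divergent H2A-H2B pair, 176 to 306 bp apart, also count upstream of both partners. Their part in the order by type was not tested. Over the transcribed part, cut density was 44.6% of that upstream in 48 members with transcripts of 300 to 2000 bp, and 74.3% in 1032 other single-exon genes of that length, a group with a lower density upstream. In the 9 members of that length with under 25% repeated it was 59.4%. Fragments under 150 bp, too short to span a nucleosome with its linkers, made up 49.8% of fragments at members (95% binomial interval 49.3 to 50.3) and 57.9% at all other promoters. By type the share ran from 54.0% in H4 to 43.7% in H3.

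**Figure D3:**
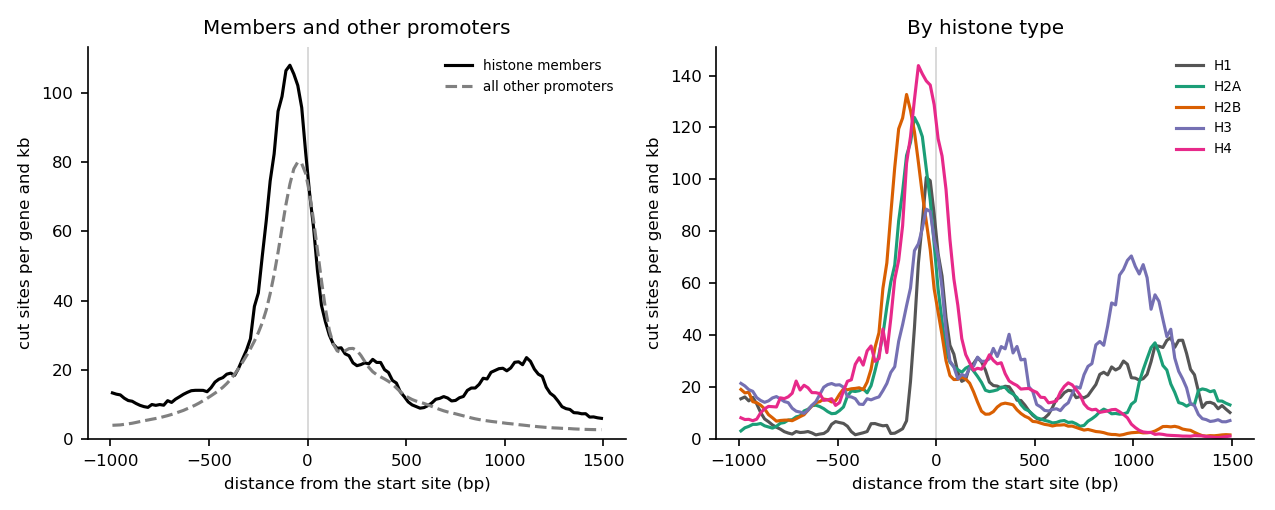
Cut sites per gene and kb against the distance from the TSS, as a running mean of 5 bins, for 53 histone members and all other promoters (left) and for members by type (right). Members peak 90 bp upstream of the start, other promoters 50 bp upstream, and H2B members farthest upstream. A second rise about 1 kb downstream of H3 members lies outside the window used for counting. At that distance from Hist1h3a and Hist2h3b lie the promoters of Hist1h4a (113 FPM) and Hist2h2bb (37.6 FPM). Their part in the rise was not tested.

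Clusters of cells were made from tiles on chromosomes that hold no member, so that histone promoters had no part in them. This gave 4 clusters of 860, 830, 749 and 669 cells, with similar median depth (11033 to 12045 fragments). By promoters they were led by Prss1, Rgs1, Il34 and Hydin, in order. These had 20, 430, 26 and 56 fragments over all cells, so all but Rgs1 rest on few. The clusters were kept as numbers because no marker list named any of them. Levels were compared between each cluster and the other cells as the log2 ratio of fragments per promoter fragment, with an exact interval for counting error.

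Summed over all members, histone promoters differed little between these 4 clusters, and whether beyond counting error depended on the setting. They took 2.91, 2.96, 3.01 and 2.95 of every 1000 other promoter fragments in clusters 1 to 4. The log2 ratio to the other cells lay between -0.03 and 0.03, and each of the 4 intervals included 0, with bounds from -0.06 to 0.07. By locus, members of Hist2, Hist3 and Hist4 were lower in cluster 2 (-0.10, interval -0.17 to -0.03) and higher in cluster 4 (0.11, 0.03 to 0.18), whereas Hist1 had 0.03 and -0.04 there, with intervals that included 0, and the difference between loci was not tested. Without the marked doublets the other loci had -0.13 and 0.14 in these clusters. With depth taken as all fragments in place of fragments at other promoters, 3 of the 4 intervals excluded 0, with log2 ratios from -0.10 to 0.07. With clusters from tiles of all chromosomes 1 of 4 did. The result also depended on the clustering, since 3 of 7 clusters at Leiden resolution 1.2 and 4 of 5 with 15 components had intervals that excluded 0, with log2 ratios of up to 0.15 and 0.17. S-phase and G2/M promoters had log2 ratios between -0.04 and 0.07, and with more fragments 4 of their 8 intervals excluded 0.

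For single members, 60 had at least 20 fragments and could be compared. The interval excluded 0 for 8 members in cluster 1, 5 in cluster 2, 11 in cluster 3 and 12 in cluster 4. These were 13.3%, 8.33%, 18.3% and 20% of the members, against 18.4%, 14.5%, 19.3% and 15.2% of all 15311 promoters compared. The share of members was thus near the background of the whole genome. The same holds for the 12 members called in more than 1 cluster (20% of members, against 19.6% of all promoters compared), so the values that follow describe these members and are not read as differences particular to them. Hist1h4a was the 1 member called in all 4 clusters, as were 0.673% of all promoters: it was lower in clusters 1 and 3 (log2 -0.18 and -0.21) and higher in clusters 2 and 4 (0.17 and 0.19). Hist2h4, another H4 gene, was lower in cluster 2 (-0.25) and higher in cluster 4 (0.37). In cluster 4, Hist1h4c (-0.34), Hist1h1c (-0.41), Hist1h3b (-0.68), Hist1h2ab (-0.68), Hist1h1b (-0.51) and Hist4h4 (-0.30) were lower. In cluster 3, Hist1h1c (0.40), Hist1h2ab (0.55), Hist1h3b (0.45), Hist1h4c (0.22), Hist1h3g (0.32) and the pair Hist1h2ak and Hist1h2bn (0.27 and 0.22) were higher, the last 3 also being lower in cluster 1 (-0.30, -0.38 and -0.31). Hist1h2bb was lower in cluster 1 (-0.32) and higher in cluster 2 (0.30), and Hist4h4 and Hist1h1b were higher in cluster 1 (0.27 and 0.42).

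By type, H1 differed most between clusters. H1 promoters, which as a type had 2582 fragments, were lower in cluster 4 by a log2 ratio of -0.41 (interval -0.55 to -0.26) and higher in cluster 3 by 0.24 (0.11 to 0.36). The other types lay between -0.07 and 0.05 in every cluster, and of their intervals only that of H2A in cluster 1 excluded 0. In cluster 4 the ratio was negative for the 4 H1 genes with most fragments: Hist1h1e -0.56, Hist1h1b -0.51, Hist1h1c -0.41 and Hist1h1a -0.26, although the interval of the last one reached 0.01. Hist1h1t, with 34 fragments, had 0.26 (-1.02 to 1.41). The difference of the type was as large without the marked doublets (-0.41). At Leiden resolution 0.4, with 2 clusters, H1 in the lower one had -0.08 (-0.21 to 0.04). Megakaryocyte marker promoters moved the same way in these clusters, with log2 ratios of -0.24 in cluster 4 and 0.27 in cluster 3, but also with -0.28 in cluster 1, where H1 had 0.11. Their part in the result was not tested. With 1 preparation, and with H1 singled out after 5 types and 4 clusters had been seen, this is a description of these cells.

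**Figure D4:**
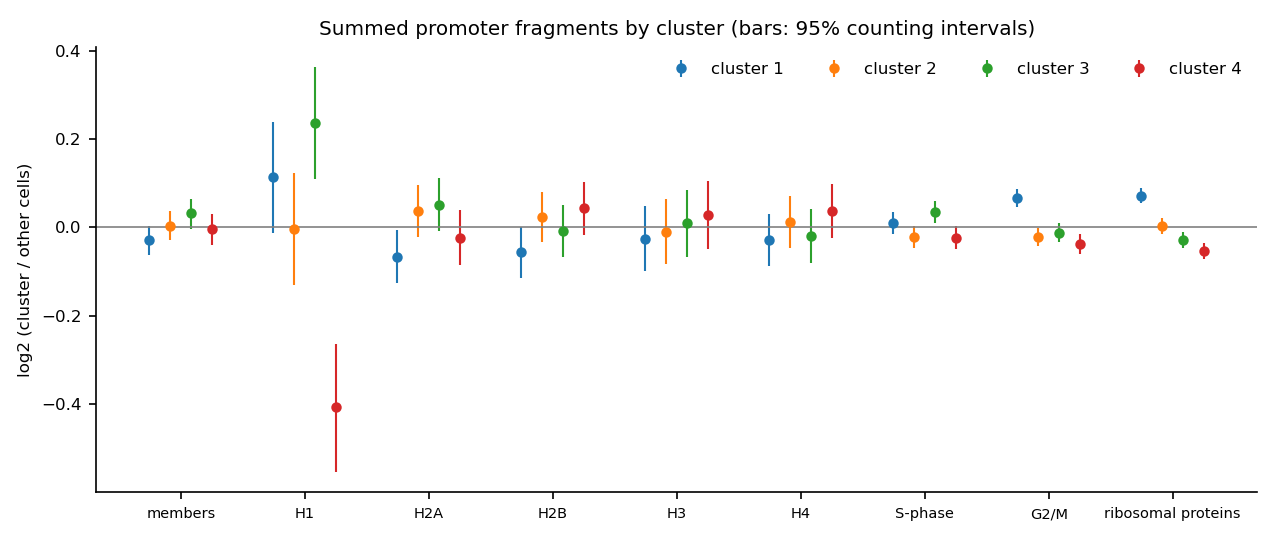
Log2 ratio of summed promoter fragments in each cluster to the other cells, for all histone members, each histone type and 3 comparison groups, with exact 95% intervals for counting error. All members together lie between -0.03 and 0.03, whereas H1 lies at -0.41 in cluster 4 and 0.24 in cluster 3.

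Whether histone loci on different chromosomes vary together over cells bears on how far their accessibility follows S phase. The number of member fragments in a cell was compared with the number that its fragments at other promoters would give by counting error alone. The variance relative to this number, which is 1 for counting error alone, was 1.81 for the summed members and 1.52 without the marked doublets. The value was 1.33 for S-phase genes, 1.26 for G2/M genes and 1.36 for ribosomal protein genes. The spread of the underlying level beyond counting error came to a coefficient of variation of 29.0% for members, against 12.3%, 9.61% and 8.75%. By type it ran from 29.5% in H3 to 50.9% in H1. Members thus varied more between cells than the other gene groups, though adjacent members share fragments and local DNA.

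Over the 3108 cells, the depth-corrected levels of Hist1 and of the members on other chromosomes correlated with Pearson's r = 0.11 (Spearman's rho = 0.05), against r = 0.45 before the correction for depth. Members correlated with S-phase promoters with r = 0.13 (rho = 0.08), with G2/M promoters with r = 0.09, with ribosomal protein promoters with r = -0.04 and with replication-independent histones with r = -0.004. Splitting the S-phase list by chromosome gave r = 0.07 between its parts. For the 6 readable blocks of members, the 15 pairs had r between -0.03 and 0.19, with a median of 0.05 (rho between -0.005 and 0.20). The highest pair was within Hist1 by r, but by rho it was a block of Hist1 with Hist4. Fragments in the Hist1 span outside any promoter window also correlated with Hist1 members (r = 0.12). Without the marked doublets, r was 0.066 between the loci and 0.061 with S-phase promoters, and with depth taken as all fragments it was 0.13 and 0.21. The cells share 1 library and these correlations are weak, so they are values and not a finding.

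Some cells had far more fragments at Hist1 than their depth gives. At Hist1, 45 cells had more fragments than the 99.9% point of the counting distribution at their depth, where 2.08 cells are what counting error gives. A further 59 cells were between the 99% and the 99.9% point, where 19.8 are. Other gene groups also had more cells over their 99.9% point than counting error gives. There were 12 for S-phase promoters (2.31 by counting error), 13 for G2/M (2.40) and 15 for ribosomal proteins (2.49). The 45 cells had 16 fragments or more at Hist1 members, with a median of 33, against 8 in the 3004 cells below both points. Clusters 1 to 4 held 11, 10, 12 and 12 of them, and 12, 19, 25 and 3 of the 59. Without the 45 cells, r was 0.072 between loci and 0.080 with S-phase promoters, but taking out cells for their Hist1 counts can lower r by itself.

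Measured at promoters that share no fragment with Hist1, these 45 cells differed from the 3004 others. The members of Hist2, Hist3 and Hist4 were 1.49 times as high (interval 1.32 to 1.68), with 0.963 against 0.647 of every 1000 promoter fragments. S-phase promoters were 1.22 times as high (1.16 to 1.28) and G2/M promoters 1.17 times (1.12 to 1.22). Replication-independent histones stayed at 1.04 (0.949 to 1.14) and ribosomal protein genes were slightly lower, at 0.94 (0.906 to 0.974). The same cells had more of everything, with a median of 6415 RNA UMIs against 3836 and of 19499 ATAC fragments against 11379. Of the 45, 28 (62.2%) were marked as possible doublets, against 5.36% of the others. A cell that has replicated its DNA carries more than 2 copies and can be marked by the same count, so that doublets and such cells cannot be told apart by the ATAC counts used. RNA counts per gene, which bear on S phase directly, were not analysed here. Among cells not marked, 17 remained over the limit. Their values were 1.30 (0.986 to 1.69) for the other histone loci, 1.1 (0.989 to 1.21) for S phase and 1.01 (0.925 to 1.1) for G2/M. In the 44 unmarked cells between both points, the values were 1.29 (1.09 to 1.52), 1.1 (1.03 to 1.17) and 1.01 (0.954 to 1.06). Intervals treat fragments as independent, which cells that differ from each other are not.

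**Figure D5:**
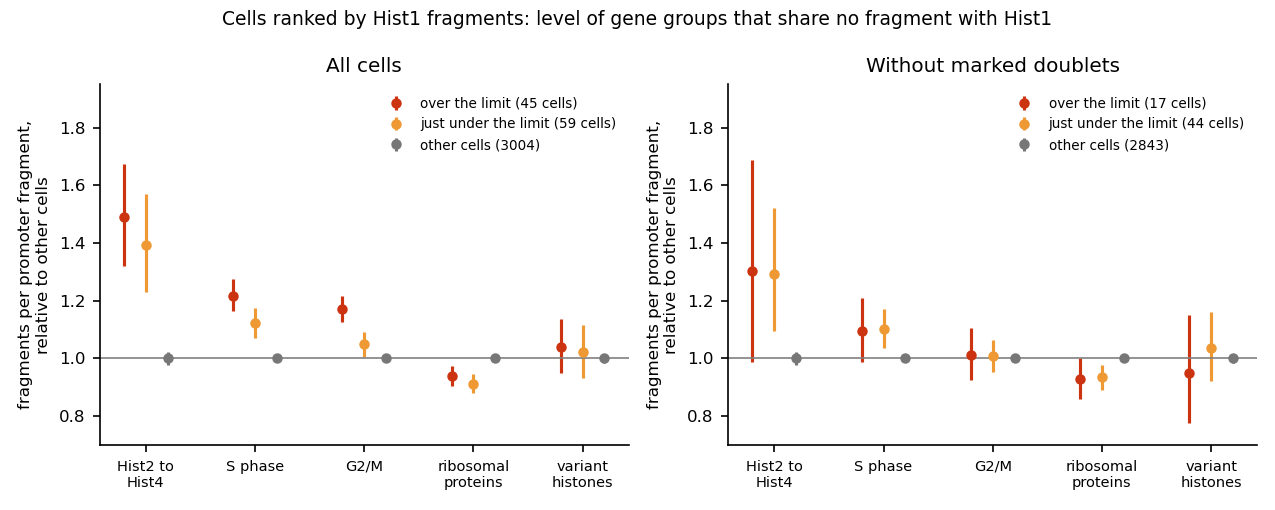
Level of gene groups in cells over the 99.9% point of the counting distribution at Hist1 (45 cells), in cells just under it (59) and in other cells (3004), as share of promoter fragments relative to the other cells, for all cells (left) and without marked doublets (right), with 95% intervals for counting error. Histone loci on other chromosomes (1.49) and S-phase promoters (1.22) are higher in the cells over the limit, ribosomal protein promoters (0.94) are not, and without marked doublets the histone value is 1.30 with an interval from 0.986.

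Across all cells the level was highest in the deepest cells, by less without marked doublets, which had a median of 23377 fragments against 11193 in other cells. In the quartile of cells with most RNA UMIs, members took 3.17 of every 1000 promoter fragments (3.11 to 3.22), against 2.86, 2.89 and 2.86 in the quartiles below, from the lowest up. For quartiles by ATAC fragments the values were 2.88, 2.82, 2.84 and 3.17. Without the marked doublets, the highest quartile had 2.90 (2.83 to 2.97) by UMIs and 2.93 (2.87 to 2.99) by ATAC fragments. These intervals overlap those of the lowest quartile (2.79 to 2.91 and 2.80 to 2.95). The mark was not corrected for depth, so leaving marked cells out also takes out deep cells. In the highest quartile by ATAC fragments 577 of 777 cells remained. S-phase promoters took 5.47 in the highest quartile by UMIs and 5.11, 5.10 and 5.16 in the others, and without the marked doublets 5.40 (5.31 to 5.49) in the highest and 5.11 (5.02 to 5.19) in the lowest. By the share of fragments at promoters the values were 3.11, 2.96, 2.87 and 2.88 from the lowest quartile up. Without the marked doublets they were 3.02 (2.96 to 3.09) in the lowest and 2.78 (2.72 to 2.85) in the highest quartile, with intervals that do not overlap. By the share of fragments under 150 bp the level went from 2.85 and 2.92 in the lower quartiles to 3.01 and 3.05 in the higher ones, and without the marked doublets the 4 values were 2.81, 2.82, 2.94 and 2.90.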

How the data were processed

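The authors mapped reads to mm10 with Cell Ranger ARC 2.0.2 (fragment file header), which collapses duplicate read pairs. They deposited the position of each unique fragment and raw counts of fragments, reads, UMIs and genes per barcode. No deposited value is normalized, and the antibody counts and the RNA counts per gene were not used here. Fragments overlapping the window of 500 bp on each side of the TSS of the principal transcript were counted in called cells with more than 3000 fragments in peaks. Overlapping windows were merged in sums. Sequences came from the GRCm38 assembly, in which no fragment ended beyond a chromosome. A window was called repeated when over 50% of its 50-base stretches occurred elsewhere. Clusters used 100000 tiles of 500 bp off the chromosomes with members, TF-IDF (scale 10000), 30 SVD components without those correlated with depth beyond 0.5, 20 neighbors and Leiden at resolution 0.8. The depth of a cell was its fragments at promoters outside all lists. Intervals (95%) are exact Poisson or binomial. Doublets were marked by a Poisson limit on sites with more than 2 fragments, the same at every depth, and kept. Work was done in Python 3.11.15 with leidenalg 0.10.2 and igraph 0.11.9 for the clusters, scipy 1.17.1 for intervals, scikit-learn 1.9.0 for SVD, and numba 0.67.0, pandas 2.3.3, numpy 2.4.6 and matplotlib 3.10.9. Count ratios, dispersion and correlation were tested on simulated data.

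The members and the gene lists were chosen with earlier results of these data known. Named in the text are the 5 members with most and the 5 with fewest fragments, the highest of each type at each locus, the germ-line members, those that differed in more than 1 cluster, and the extremes of other lists. Further names were chosen after their values were seen: marker genes, neighbors within Hist1, H1 genes, Slbp, Hist1h2be, Hist1h1a, Hist1h3a and Hist1h3e. With 1 library no replicate could be left out. The alternatives are in the closing section.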

Additional observations from a re-analysis of the deposited data

How the results depend on the processing

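The median member over the median promoter (2.28) stayed above 1 in the 7 alternatives, with 2.04 in windows of 1000 bp each side, 2.5 at the 5′ end of the gene and 2.67 without members with repeated windows as the values that moved. The log2 ratio of the mean H4 to the mean H1 member (1.12) was 0.76 in windows of 1000 bp each side, 1.34 without repeated members, 0.93 at the start codon and 0.62 without Hist1h4a; the last 2 alternatives were added after seeing the data. The variance over that of counting error (1.81) was 1.93 with depth as all fragments, 1.72 in all called cells and 1.52 without marked doublets. The correlation of Hist1 with the other loci (0.11) was 0.066 without marked doublets and 0.072 without the cells over the limit. The last alternative was added after seeing the data, and its choice of cells can lower r by itself. With S-phase promoters (0.13) r was 0.21 with depth as all fragments, 0.061 without marked doublets and 0.080 without the cells over the limit. When the limit was set again without marked doublets, 21 cells were over it in place of 45. The members' largest log2 ratio of a cluster (0.03) became 0.15 at resolution 1.2, 0.17 with 15 components and -0.10 with depth as all fragments, where 3 of 7, 4 of 5 and 3 of 4 clusters had intervals that excluded 0, so the even level across clusters depends on those settings. H1 in the lowest cluster (-0.41) was -0.26 to -0.41 in 7 alternatives added after seeing the data and -0.08 at resolution 0.4, whose interval included 0; the lowest cluster was taken anew each time, which fixes the sign. The causes were not tested. No paired analysis was possible because each kind of library was made once and no group is compared. Depth limits single members with few fragments, and 1 preparation limits all values.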
